A study of Mus musculus with 2 samples.

Results

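The nucleolar and ribosome biogenesis genes are 36 genes whose proteins build the ribosome in the nucleolus. They were taken by gene symbol from the 43346 gene rows of the tables, and all 36 had a row in both libraries. By role they are 2 nucleolar proteins, 8 genes of the small nucleolar ribonucleoproteins (snoRNPs), 9 genes of small-subunit assembly, 13 genes of large-subunit assembly and 4 subunits of RNA polymerase I. The samples were forebrains of healthy mouse embryos of the strain B6NCrl at embryonic day 11.5, with both sexes pooled. Replicate 1 came from 109 embryos and replicate 2 from 88 embryos, and no mutant, treated or other control group was set beside them. Each library was made from 1 cell-equivalent of total RNA above 200 nucleotides by a SmartSeq protocol, which amplifies the complementary DNA, with spike-in RNAs added. The labels title the assay as single-cell RNA sequencing, but the material was pooled tissue, so each library is a bulk sample, in which fewer cells of a type and less RNA per cell cannot be told apart.

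Ribosome production starts in the nucleolus, where RNA polymerase I transcribes the precursor of the large ribosomal RNAs. Box C/D snoRNPs methylate the precursor at the ribose, box H/ACA snoRNPs turn chosen uridines into pseudouridines, and a series of assembly factors cut and fold it into the small and the large subunit. Growing and dividing cells, among them the neural progenitors that make up most of the early forebrain wall, are known for large nucleoli and high ribosome output.

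Depth was similar, at 28639678 expected counts for replicate 1 and 28948074 for replicate 2. Spike-ins took 4.35% of the counts of replicate 1 and 3.35% of those of replicate 2. Of 11 telencephalic markers, 10 were detected in both libraries, with summed levels of 879 TPM in replicate 1 and 706 TPM in replicate 2 (TPM is transcript abundance scaled for transcript length and to one total per library). All 8 midbrain and hindbrain markers were at 0 counts. RNA of other cells was present in both libraries: the erythroid markers (6 of 9 detected in both) summed to 31193 TPM in replicate 1 and 37331 TPM in replicate 2, the endothelial markers (5 of 7) to 151 and 117 TPM, and the mesenchymal markers (5 of 7) to 447 and 350 TPM. The myeloid markers (2 of 6) summed to 115 TPM in replicate 1 and 27.3 TPM in replicate 2. Fcer1g had 65.8 TPM in replicate 1 and 23.3 TPM in replicate 2, Aif1 had 33.0 and 0.12 TPM, and Csf1r had 15.7 and 2.86 TPM. Ptprc was at 0 in both libraries. Tyrobp (0 and 0.1 TPM) and Cx3cr1 (0 and 0.94 TPM) were higher in replicate 2 but under 1 TPM. Single endothelial and mesenchymal markers were also uneven, in both directions. Pecam1 had 19.7 TPM in replicate 1 and 0.02 TPM in replicate 2, Dcn had 54.8 and 0.03 TPM, and Twist1 had 0 and 18.1 TPM. The part of these other cells in the levels below was not tested.

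Nearly all of the 36 genes were detected in both libraries. At a TPM of at least 1, 34 of the 36 genes were detected in both (94.4%), against 30.4% of all protein-coding genes and 16.6% of all genes. The other 2, Ftsj3 and Rrp12, were detected in replicate 2 alone. Together the 36 genes summed to 4878 TPM in replicate 1 and 4868 TPM in replicate 2, a mean of 4873 ± 6.73 TPM (SD, n = 2). They took 0.593% of the gene counts of replicate 1 (95% Clopper-Pearson interval 0.590 to 0.595%) and 0.613% of those of replicate 2 (0.610 to 0.616%), intervals that cover counting error only. The mean level was at least 100 TPM for 13 genes, between 20 and 100 TPM for 20 and below 20 TPM for 3. In both libraries 19 genes lay above the median of the protein-coding genes detected in both, and 3 lay in their top decile. The share of all detected genes that did so in both is not given here. These counts therefore do not place the 36 above other detected genes. The median of the mean levels was 61.1 TPM, against 871 TPM for the 84 cytosolic ribosomal protein genes and 110 TPM for the 77 mitochondrial ones.

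**Figure D1:**
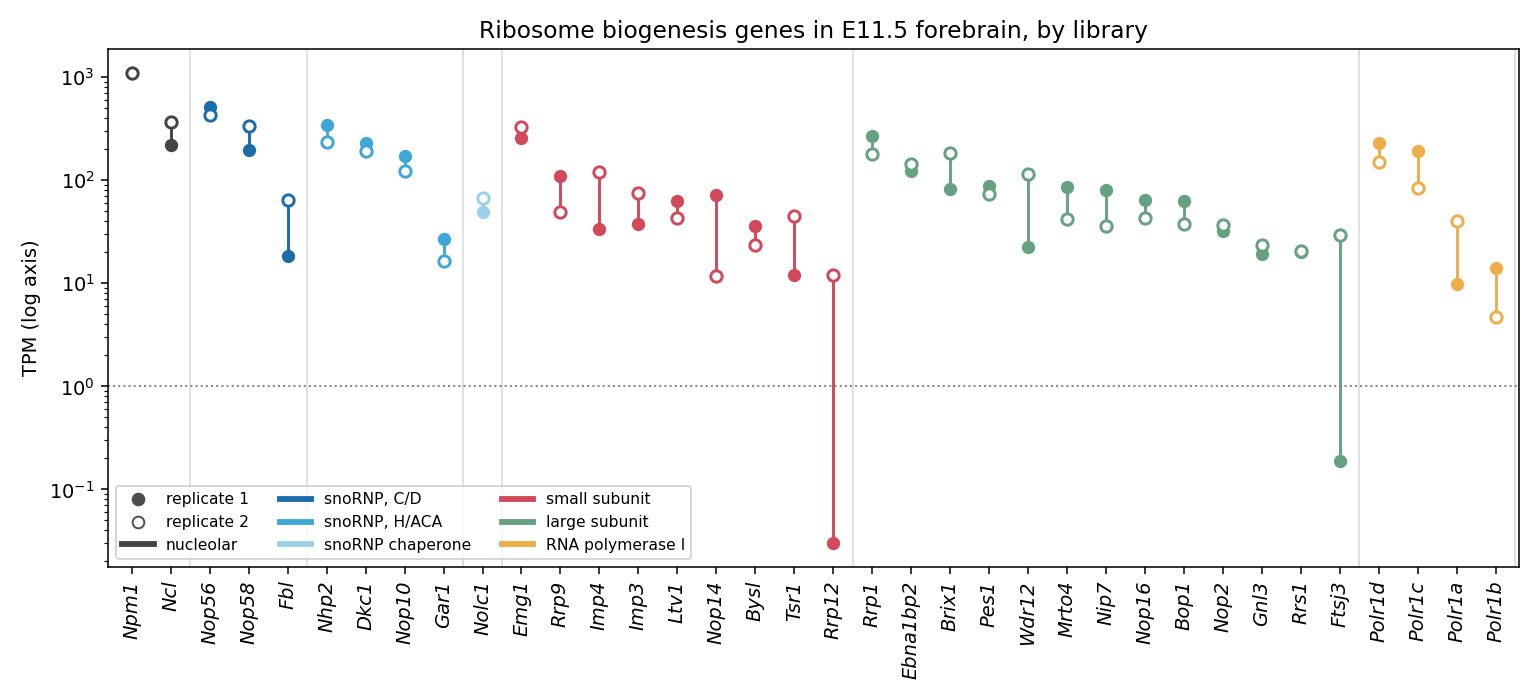
Level of each of the 36 genes in TPM on a log axis, grouped by role; filled points are replicate 1, open points replicate 2, and the dotted line is the detection limit of 1 TPM. Npm1 is the highest gene at 1096 and 1093 TPM, and Rrp12 and Ftsj3 stand far apart between the libraries.

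Levels of single genes were less alike than their sum. Among the 34 genes averaging 10 TPM or more, 12 differed at least 2-fold between the libraries on the log2(TPM + 1) scale (35.3%), against 51.3% of all genes at that level. Of these, 5 were higher in replicate 1, where 24.7% of all genes were, and 7 in replicate 2, where 26.6% were. With 1 library for each pool there is no replicate of such a difference and no test. Among all genes the share was lower at higher levels. From 20 to 50 TPM, 4 of 9 genes differed 2-fold (all genes 56.1%), from 50 to 100 TPM 5 of 11 (42.9%), from 100 to 200 TPM 2 of 5 (28.9%), and none of the 8 genes at 200 TPM or more did (9.96%). The single gene between 10 and 20 TPM, Ftsj3, also differed (75.6%). Spike-ins were added RNA and not tissue, and their median absolute difference is given by level beside that of the biogenesis genes. From 10 to 20 TPM it was 4.68 for Ftsj3 and 4.69 over 7 spike-ins, and from 20 to 50 TPM 0.69 for the biogenesis genes and 0.32 over 2 spike-ins. From 50 to 100 TPM it was 0.98 and 1.15 (8 spike-ins), from 100 to 200 TPM 0.60 and 1.48 (3 spike-ins), and at 200 TPM or more 0.45 and 0.31 (18 spike-ins). Neither kind was the lower at every level. The median signed difference over the 36 genes, replicate 1 minus replicate 2, was 0.12, against -0.12 over all genes averaging at least 1 TPM and -0.02 over those averaging at least 10 TPM. Higher in replicate 1 were 19 of the 36 genes, against 46.9% of all genes, and 17 were higher in replicate 2.

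**Figure D2:**
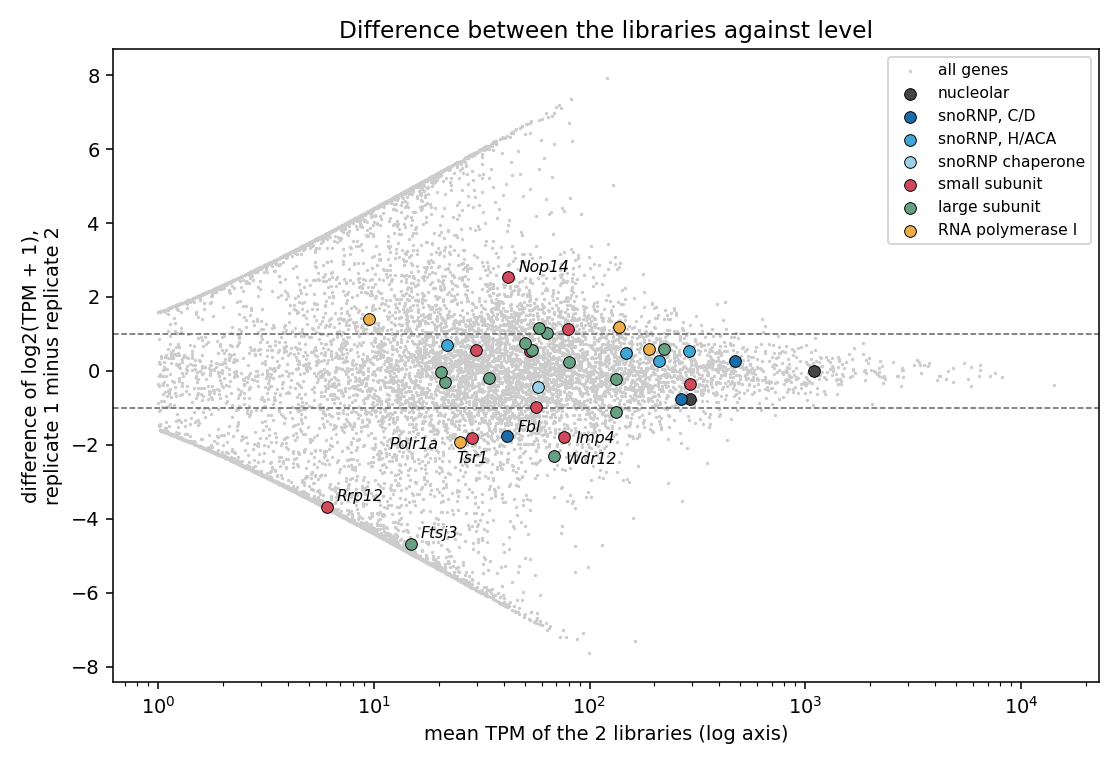
Difference of log2(TPM + 1), replicate 1 minus replicate 2, against the mean TPM of the 2 libraries on a log axis; coloured points are the 36 biogenesis genes by role, grey points are all genes averaging at least 1 TPM, and dashed lines mark 2-fold. The 8 biogenesis genes of 200 TPM or more lie within the dashed lines, and Rrp12 and Ftsj3 lie on the edge formed by genes read almost only in replicate 2.

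Npm1 and Ncl encode the abundant nucleolar proteins nucleophosmin, a chaperone that organises the outer nucleolus, and nucleolin, which binds ribosomal RNA. Npm1 (ENSMUSG00000057113, chr11:33152287-33163206, minus strand, mm10) was the most abundant of the 36 genes, at 1096 TPM in replicate 1 and 1093 TPM in replicate 2 (1095 ± 2.61 TPM, SD, n = 2), and it ranked 121 and 126 among all genes. Its isoforms were less even than its total: the transcript ENSMUST00000075641 of 1633 bases held 45.7% of the gene's level in replicate 1 and 24.4% in replicate 2, while ENSMUST00000093201 of 1192 bases held 42.4% and 50.3%. Ncl stood at 218 TPM in replicate 1 and 368 TPM in replicate 2, a difference of -0.75. Most of that level fell to ENSMUST00000185676, a 3072-base transcript that GENCODE release M21 classes as a retained intron, at 172 TPM in replicate 1 and 325 TPM in replicate 2. The coding transcript ENSMUST00000027438, modelled at 8202 bases, had 30.2 TPM in replicate 1 and 21.6 TPM in replicate 2. The gene total was thus higher in replicate 2 and the coding transcript higher in replicate 1.

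The 3 box C/D genes encode the methyltransferase fibrillarin (Fbl) and its scaffold proteins Nop56 and Nop58. Nop56 had 514 TPM in replicate 1 and 428 TPM in replicate 2, Nop58 had 197 and 337 TPM, and Fbl had 18.5 and 64.7 TPM. The scaffold genes were therefore above the enzyme in both libraries, but not by the same margin: Nop56 exceeded Fbl 27.8-fold in replicate 1 and 6.61-fold in replicate 2, or 15.7-fold and 3.38-fold on coding transcripts alone. Of the 8 snoRNP genes Fbl was the one that differed 2-fold between the libraries, with 439 expected counts in replicate 1 and 1522 in replicate 2 (difference -1.75).

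The 4 H/ACA genes encode dyskerin (Dkc1), the pseudouridine synthase, and its partners Nhp2, Nop10 and Gar1, which the telomerase particle shares. Nhp2 had 345 TPM in replicate 1 and 236 TPM in replicate 2, Nop10 had 172 and 123 TPM, and Gar1 had 27.1 and 16.5 TPM. In TPM all 4 were higher in replicate 1, by differences of 0.25 to 0.69, none of them 2-fold, but with TMM-scaled counts Dkc1 was higher in replicate 2 (-0.63) and Gar1 differed by 0.12. Gar1 had 445 expected counts in replicate 1 and 421 in replicate 2. The TPM ratio of Nhp2 over Nop10 was 2.01 in replicate 1 and 1.92 in replicate 2, that of Nhp2 over Gar1 was 12.7 and 14.3, and that of Dkc1 over Gar1 was 8.38 and 11.6. Dkc1 itself had 227 TPM in replicate 1 and 190.4 TPM in replicate 2, yet its expected counts ran the other way, 3974 in replicate 1 and 6367 in replicate 2, the only one of the 36 genes where they did. The full-length transcript ENSMUST00000033776, of 2804 bases, had 11.8 TPM in replicate 1 and 81.2 TPM in replicate 2, and shorter transcripts held the rest of the gene's level. Over all coding transcripts Dkc1 was nearly level in TPM, at 80.4 TPM in replicate 1 and 81.2 TPM in replicate 2. The expected counts of its coding transcripts were not level, at 1849 in replicate 1 and 4871 in replicate 2. The 839-base coding transcript ENSMUST00000131155 had 68.6 TPM in replicate 1 and 0 in replicate 2. Nolc1, the chaperone that carries snoRNPs through their assembly, had 49.2 TPM in replicate 1 and 66.6 TPM in replicate 2.

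Some of these genes also carry snoRNAs, the guide RNAs of the same particles, in their introns. In GENCODE release M21, 6 of the 36 genes (16.7%) hold 18 snoRNA genes on their own strand, against 1.19% of all protein-coding genes and 2.2% of those averaging 10 TPM or more. Nop56 holds 5, Nop58 4, Ncl 3, Gnl3 3, Tsr1 2 and Dkc1 1, with lengths of 68 to 133 bases. Searched for letters on the snoRNA's own strand, 12 had TGATG in the first 20 bases and CTGA in the last 20, as in the boxes C and D. Another 2, longer than 100 bases, ended with ACA within the last 8 bases, as in the H/ACA class. The other 4 met neither rule in full. Among these, Snord19, Snord57 and Gm22771 had CTGA in the last 20 bases but no TGATG in the first 20. A snoRNA shorter than the fragments counted has an effective length of 0 and can hold no reads, which was so for 15 of the 18. The 6 shown are of both box classes, from the 3 hosts of highest level, from GENCODE M21 transcripts on mm10, written 5′ to 3′ with the box letters in capitals.
Snord70 (inside Nop58, chr1:59691934-59692020, plus strand): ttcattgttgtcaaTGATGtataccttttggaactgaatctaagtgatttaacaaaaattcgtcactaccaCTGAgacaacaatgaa
Snord11 (inside Nop58, chr1:59704790-59704873, plus strand): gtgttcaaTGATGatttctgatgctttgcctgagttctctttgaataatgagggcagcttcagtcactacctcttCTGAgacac
Snord110 (inside Nop56, chr2:130275506-130275573, plus strand): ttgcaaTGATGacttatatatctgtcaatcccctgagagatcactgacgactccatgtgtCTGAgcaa
Gm24451 (inside Nop56, chr2:130276237-130276369, plus strand): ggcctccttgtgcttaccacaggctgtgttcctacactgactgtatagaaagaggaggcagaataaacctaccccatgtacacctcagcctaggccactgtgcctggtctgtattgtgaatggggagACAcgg
Snord82 (inside Ncl, chr1:86356261-86356330, minus strand): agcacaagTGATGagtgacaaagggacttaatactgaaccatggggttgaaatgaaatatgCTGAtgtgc
Snora75 (inside Ncl, chr1:86351169-86351301, minus strand): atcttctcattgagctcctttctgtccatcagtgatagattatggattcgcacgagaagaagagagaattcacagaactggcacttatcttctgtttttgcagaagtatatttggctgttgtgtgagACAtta

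In the 4 box C/D sequences the marked letters stand near the opposite ends, and in Gm24451 and Snora75 the ACA stands before the last 3 bases. Snora75, of the same length as Gm24451, had 0 counts in both libraries. Gm24451, of 133 bases inside Nop56, was the one snoRNA of the 18 with counts, 32 in replicate 1 and 27 in replicate 2. The host gene's own row had an expected count of 14906 in replicate 1 and of 12728 in replicate 2. Both lie on the plus strand, so the counts alone do not tell reads of unspliced Nop56 RNA from reads of the snoRNA. The libraries were made from RNA above 200 nucleotides, and the snoRNA has 133 bases. The source of its counts was not tested.

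Among the 9 small-subunit genes, Emg1, a methyltransferase of small-subunit ribosomal RNA, was the most abundant, at 257 TPM in replicate 1 and 328 TPM in replicate 2. Genes of the U3 snoRNP and its partners were lower and uneven. Rrp9, a U3 protein, had 109 TPM in replicate 1 and 49.4 TPM in replicate 2. Imp3 and Imp4, which join U3 to the precursor, ran the other way, Imp3 at 37.6 TPM in replicate 1 and 75.4 TPM in replicate 2 and Imp4 at 33.4 and 119 TPM. Nop14, a scaffold of the early small-subunit particle, had the largest excess in replicate 1 of the 36 genes, at 72.4 TPM in replicate 1 and 11.7 TPM in replicate 2 (4224 and 679 expected counts, difference 2.53). An antisense gene inside Nop14, Gm15522, had an expected count of 390.4 in replicate 1 and of 0 in replicate 2. Its part in the Nop14 difference was not tested. Nop14 was 1 of 16 genes of the 36 that overlapped another gene, snoRNAs aside. The share over all genes is not given here, so this count does not set the 36 apart. Some of the overlapping genes, such as Parp3 at Rrp9, had 0 counts in both libraries. On the opposite strand, Ccnd3 at Bysl had 3605 expected counts in replicate 1 and 5184 in replicate 2. Pbrm1 at Gnl3 had 4976 and 7316. The part of such overlaps in the levels was not tested.

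The late factors of the small subunit were similarly spread. Ltv1 had 63.2 TPM in replicate 1 and 43.1 TPM in replicate 2, and Bysl had 35.5 and 23.7 TPM, differences of 0.54 and 0.56. Tsr1, a GTPase-like factor of the last steps, had 12.1 TPM in replicate 1 and 45.0 TPM in replicate 2. Its full-length coding transcript ENSMUST00000045807, of 3389 bases, had 1.07 TPM in replicate 1 and 45.0 TPM in replicate 2, and in replicate 1 the gene's level fell mostly to a transcript of the nonsense-mediated decay class and one with a retained intron. Rrp12, a factor of subunit export, had 3 counts in replicate 1 and 1135 in replicate 2, a ratio of 374 (counting interval 128 to 1818) of replicate 2 over replicate 1. Its level was 0.03 TPM in replicate 1, at the 3 counts that a count of 0 allows, and 12.1 TPM in replicate 2. The counting interval treats each read as an independent draw, although the complementary DNA was amplified, and so covers counting error only.

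Of the 13 large-subunit genes, Rrp1 was the most abundant, at 267 TPM in replicate 1 and 178 TPM in replicate 2. Pes1, Bop1 and Wdr12 form the PeBoW complex, which acts on the precursor of the large subunit. Pes1 had 86.9 TPM in replicate 1 and 74.0 TPM in replicate 2, and Bop1 had 63.2 and 37.3 TPM. Wdr12 had 22.5 TPM in replicate 1 and 114.6 TPM in replicate 2, the largest 2-fold difference of a large-subunit gene detected in both libraries (-2.30). The order of the complex therefore changed, with Bop1 at 2.81 times Wdr12 in replicate 1 and 0.325 times in replicate 2. Carf, on the opposite strand of Wdr12, had 0 expected counts in replicate 1 and 648 in replicate 2. Mroh1, on the opposite strand of Bop1, had 549 and 902. The part of these overlaps in the changed order was not tested.

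The other large-subunit factors differed in both directions. Brix1, a factor of early large-subunit particles, had 83.0 TPM in replicate 1 and 181.8 TPM in replicate 2. Mrto4, a placeholder for a protein of the ribosomal stalk, had 85.8 TPM in replicate 1 and 41.7 TPM in replicate 2, and Nip7 had 80.8 and 35.9 TPM. Nop16 was at 64.7 TPM in replicate 1 and 43.1 TPM in replicate 2, a difference of 0.57, and so did not reach 2-fold. Ebna1bp2 had 123 TPM in replicate 1 and 143 TPM in replicate 2, of which coding transcripts took 13.1% and 15.3%. Nop2, a methyltransferase of large-subunit ribosomal RNA, had 31.9 TPM in replicate 1 and 36.5 TPM in replicate 2. Gnl3 (nucleostemin, a GTPase known from stem and progenitor cells) had 19.1 and 23.5 TPM, and Rrs1, which helps to insert the smallest ribosomal RNA, had 20.2 and 20.7 TPM. Ftsj3, a ribosomal RNA methyltransferase, had 0.19 TPM in replicate 1 and 29.4 TPM in replicate 2. Its counts were 6 and 1981, a ratio of 327 of replicate 2 over replicate 1 (counting interval 150 to 891, counting error only). Ftsj3 and Rrp12 were the 2 of 36 genes whose CPM (counts scaled to library depth) in one library was under 1% of that over both, against 29.8% of all genes averaging at least 1 TPM. That share takes in genes down to 1 TPM, whereas 34 of the 36 averaged 10 TPM or more. A share at matched level is not given here, so the comparison does not set the 36 apart.

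RNA polymerase I was represented by its largest subunits and by those it shares with RNA polymerase III. The shared subunits were higher: Polr1d had 229 TPM in replicate 1 and 150.2 TPM in replicate 2, and Polr1c had 191 and 84.0 TPM, a 2-fold difference. Of the catalytic subunits, Polr1a had 9.92 TPM in replicate 1 and 40.1 TPM in replicate 2, and Polr1b had 14.2 and 4.76 TPM. Polr1a over Polr1b was accordingly 0.699 in replicate 1 and 8.43 in replicate 2, so the order of the catalytic pair was not the same in the 2 libraries. Polr1b averaged under 10 TPM and so is not among the 12. The 2 transcripts of Polr1d were also exchanged: ENSMUST00000050970 held 71.4% of the level in replicate 1 and 30.5% in replicate 2, and ENSMUST00000110557 held 28.6% and 69.5%.

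For the 33 genes at 5 TPM or more in both libraries, the transcript with the highest share was the same in both for 28 (84.8%, against 74.9% of all genes at that level). Where a gene had more than 1 transcript this was 16 of 21 (76.2%, against 65.6%). The exceptions were Npm1, Dkc1, Polr1d, Mrto4 and Tsr1. Coding transcripts took over 90% of the level in both libraries for 21 of the 33 (63.6%, against 62.9% of protein-coding genes at that level), and under 50% in at least 1 library for 6 (18.2%, against 19%), shares near those of other genes. Counted on coding transcripts alone, an alternative chosen after seeing the data, 10 of 34 genes differed 2-fold, against 50.4% of protein-coding genes, and all 10 were among the 12. Imp4 dropped out, with 26.9 TPM in replicate 1 and 50.9 TPM in replicate 2 on coding transcripts, and so did Mrto4. Of the 34 genes averaging 10 TPM or more, 32 had deposited intervals of TPM that did not overlap between the libraries, against 89.9% of all genes at that level; Npm1 and Rrs1 were the other 2. These intervals describe the uncertainty of assigning reads within a library and not the spread between pools.

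**Figure D3:**
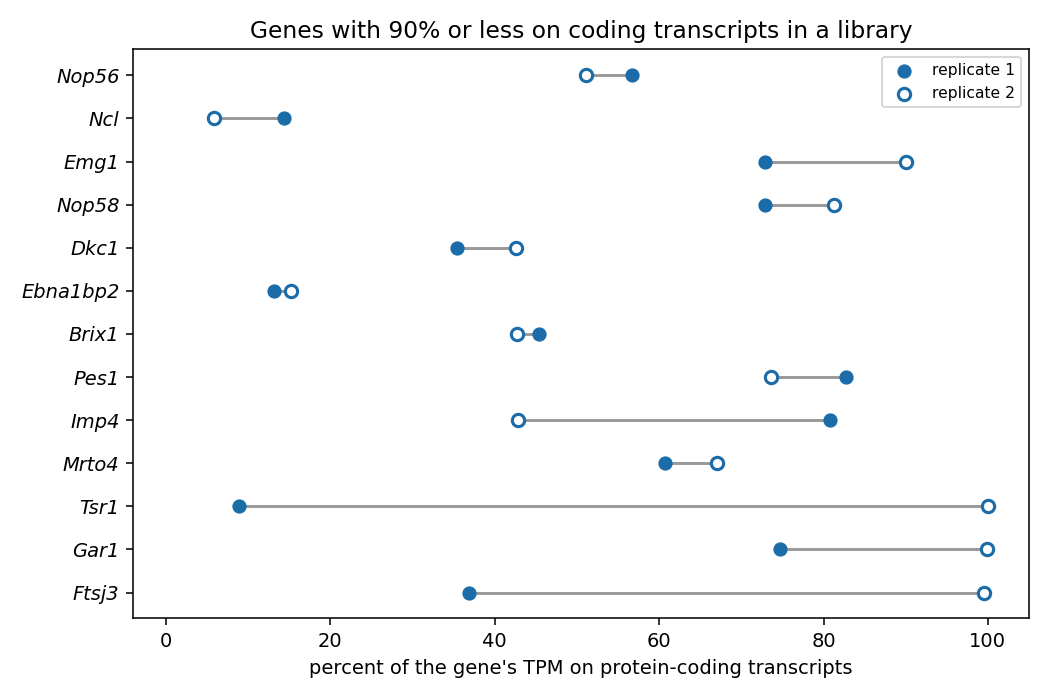
Percent of each gene's TPM on transcripts classed as protein-coding in GENCODE M21, in replicate 1 and replicate 2, for genes below 90% in at least 1 library. Ncl and Ebna1bp2 stay below 20% in both libraries, and Tsr1 is at 8.86% in replicate 1 and 100% in replicate 2.

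The wider pathway, 122 further genes found of 124 listed, gives the setting of these genes. In both libraries 93 were detected (76.2%, against 30.4% of all protein-coding genes), 23 in one library and 6 in neither. Of the 104 averaging 10 TPM or more, 52 differed 2-fold (50%, against 51.3% of all genes at that level), 25 higher in replicate 1 and 27 in replicate 2. Their levels summed to 7147 TPM in replicate 1 and 7161 TPM in replicate 2. Among the snoRNP genes the leaders were Snu13, a protein that binds box C/D RNA, at 346 and 360 TPM, followed by the ATPases Ruvbl1 at 134 and 122 TPM and Ruvbl2 at 95.5 and 116 TPM. In small-subunit assembly Fcf1, a nuclease-like protein, had 214 TPM in replicate 1 and 227 TPM in replicate 2, the methyltransferase Bud23 had 62.3 and 179 TPM, and Tbl3 had 146 and 53.8 TPM. In large-subunit assembly Eif6, which keeps the subunits apart, had 226 TPM in replicate 1 and 222 TPM in replicate 2, Rsl1d1 had 216 and 128 TPM and Rsl24d1 had 142 and 174 TPM. Of the RNA polymerase I genes, the shared subunits Polr2f, Polr2e and Polr2k led, at 355 and 434 TPM, 119 and 190.3 TPM, and 175 and 103 TPM. Of the exosome, the nuclease that trims ribosomal RNA ends, Exosc3 had 258 TPM in replicate 1 and 64.9 TPM in replicate 2, Exosc8 had 156 and 128 TPM, and C1d had 130.0 and 130.3 TPM. Of the 80 cytosolic ribosomal protein genes averaging 10 TPM or more, 5 differed 2-fold (6.25%). Their level was much higher, with a median of 871 TPM, and 9.96% of all genes at 200 TPM or more differed 2-fold. Of 76 mitochondrial ones, with a median of 110 TPM, 29 did (38.2%). The share of all genes was 28.9% from 100 to 200 TPM and 51.3% at 10 TPM or more.

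**Figure D4:**
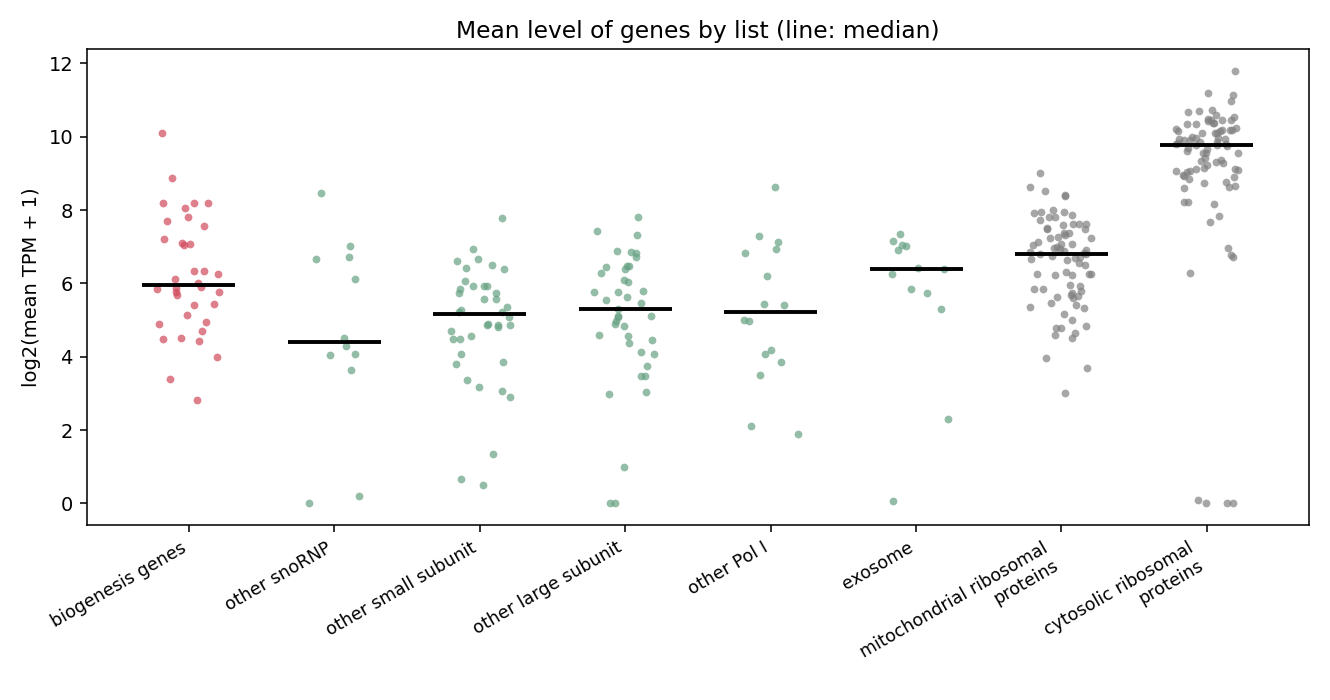
Mean level over both libraries as log2(mean TPM + 1), for the 36 biogenesis genes, the further pathway genes by role and the ribosomal protein genes; each point is 1 gene and each line the median of its list. The cytosolic ribosomal protein genes lie highest, with a median of 871 TPM against 61.1 TPM for the 36 biogenesis genes.

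Promoters of 31 of the 36 genes were found in the RefSeq windows of 250 bases before to 50 after the start (GRCm38.p6). The palindrome CACGTG, the E-box that MYC family proteins bind, occurred in 5 of them (16.1%; Imp4, Ltv1, Nop2, Pes1 and Tsr1), against 12.2% of protein-coding genes averaging 10 TPM or more and 8.09% of all windows. A match is a description of letters and not a site in use. A start of another gene on the opposite strand within 1000 bases was annotated for 19 of the 34 genes averaging 10 TPM or more (55.9%), against 30.2% of protein-coding genes at that level. For 9 of the 34 such a neighbour was detected in both libraries, against 11.4%. Ftsj3 is 1 of them: Psmc5, a proteasome subunit that starts 75 bases away, had 418 TPM in replicate 1 and 417 TPM in replicate 2, where Ftsj3 had 0.19 and 29.4 TPM.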

How the data were processed

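The authors deposited a gene and a transcript table for each of the 2 libraries, which hold expected counts (estimated reads, 11 of the 36 genes not whole) and TPM, per the file headers, spike-in rows included in the TPM total. The deposited FPKM were not used, the deposited interval limits of TPM were read as a score, and the deposited percent is each transcript's share of its gene's TPM. The mouse assembly mm10 and annotation M4 are named in the text deposited with the tables. Not given in the sources used here are the aligner, the quantification program and the use of strand, so overlapping and antisense genes may not be separable.

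Symbols, classes and coordinates came by gene ID from GENCODE M21 (mm10), which matched 42462 of 43346 gene rows. Detection was a TPM of at least 1. A difference is log2(TPM + 1), replicate 1 minus replicate 2, counted as 2-fold where its size was 1 or more and the gene averaged 10 TPM or more; this scale understates changes of low genes. With 1 group of 2 libraries no p-value was computed. The labels give separate pools of embryos, but the same donor label, so the spread may be partly technical. Expected counts were rounded to whole numbers for the scaling alternatives, edgeR 4.0.16 TMM and DESeq2 1.42.0 size factors, and tables were handled in Python 3.11.15 with pandas 2.3.3. The calculation of differences was tested on simulated data. A count of 0 allows up to 3 counts, 0.105 CPM in replicate 1 and 0.104 CPM in replicate 2, counting error only. All 36 genes could be named, and of the further pathway genes the 3 of highest mean TPM in each role. The genes and lists were chosen with earlier results of these data known.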

Additional observations from a re-analysis of the deposited data

Results flagged for a closer look

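Rows outside the comparisons held counts above the 3 that a count of 0 allows. The antisense gene Gm15522 inside Nop14 had 390.44 expected counts in replicate 1 and 0 in replicate 2. The snoRNA Gm24451 inside Nop56 had 32 expected counts in replicate 1 and 27 in replicate 2. No control samples were set beside these libraries.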

How the results depend on the processing

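No paired analysis was possible because the series has 1 group and so no 2 groups share replicate numbers. The mean summed level of the 36 genes, 4873 TPM, became 5269 TPM with TPM rescaled without spike-in rows, 4784 TPM with posterior mean TPM and, chosen after seeing the data, 3778 TPM without Npm1. Taken from 1 library alone it was 4868 to 4878 TPM, 34 to 36 of the genes were detected, and 101 to 108 of the further pathway genes. The count of genes differing 2-fold was 12 with pseudocount 0.1, posterior means, rescaled TPM, TMM and DESeq2 scaling, with the same 12 genes each time. It was 10 with pseudocount 10, which lost Mrto4 and Nip7, and 14 with no filter on low values. The median difference lay between 0.06 and 0.15 over all scalings and pseudocounts tried. The leading transcript was shared by 28 of 33 genes, also by shares from the posterior mean, and by 27 of 32 at 10 TPM or more. It was shared by 25 of 27 genes where it held at least 50% of the level in both libraries. A difference was counted as moved where it shifted by at least the SD of the gene's 2 log2 values. By counts with TMM or DESeq2 scaling, 4 of the 36 differences moved by this rule. Dkc1 went to -0.63 and -0.64, Gar1 to 0.12 and 0.11, Npm1 to 0.20 and 0.19, and Rrs1 to 0.03 and 0.02. The rule is loose for large differences, so the others were not all unchanged. With TMM scaling Imp4 went from -1.80 to -1.02, Tsr1 from -1.81 to -2.86, Ftsj3 from -4.68 to -5.87 and Rrp12 from -3.67 to -5.22. No difference of a gene called 2-fold reversed in any setting run. Leaving out a replicate was not run for the differences and the leading transcripts, which need both libraries. Rrp12 and Ftsj3, with 3 and 6 counts in replicate 1, lie at or near the counting floor there, and with 1 library for each pool no difference has an error between pools.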
